A study of Homo sapiens with 4 samples.

Results

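The TRPM channel family comprises 8 genes, TRPM1 to TRPM8, and all 8 were among the 64252 genes counted in this RNA-seq experiment. The members were taken by family name, and TRPM8 was singled out because it was selected on its own change in the contrast described here, so the values of the family are given as descriptions with no test. SK-N-BE(2) is an established human neuroblastoma cell line, derived from a childhood tumour of the sympathetic nervous system. Cells stably carrying a scramble shRNA (sh-Scb) were compared with cells carrying an shRNA against SAPCD2 (sh-SAPCD2), with 2 libraries in each group. Both kinds of shRNA were delivered by lentivirus and selected with puromycin. The labels do not say which SAPCD2 shRNA was sequenced, nor whether the libraries of a group came from separate cultures, so each p-value below measures only the spread between these libraries, which may be technical. Libraries held between 25347900 and 31850997 counts. SAPCD2 itself had 83.6 and 82.2 CPM (counts per 1000000 counts of the library, after scaling) in the sh-Scb libraries, and 35.4 and 52.5 CPM in the sh-SAPCD2 libraries. It fell by 0.91 on the log2 scale (standard error, SE, 0.193, edgeR quasi-likelihood test with Benjamini-Hochberg adjustment, adjusted p = 0.0206).

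TRPM proteins are cation channels of the transient receptor potential (TRP) superfamily, built as tetramers with long cytoplasmic ends. TRPM8 is the menthol receptor and the main cold sensor of sensory neurons, opens only with the membrane lipid phosphatidylinositol 4,5-bisphosphate bound, and is also known from prostate epithelium. TRPM6 and TRPM7 join a magnesium- and calcium-permeable pore to a protein kinase. TRPM2 is gated by ADP-ribose and calcium, TRPM4 and TRPM5 are calcium-activated channels that pass monovalent cations, TRPM3 responds to heat and pregnenolone sulfate, and TRPM1 carries the light response of retinal bipolar cells.

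TRPM8 (ENSG00000144481) lies on the forward strand of chromosome 2, from 233917373 to 234019522 in hg38, and its canonical transcript has 26 exons. TRPM7 (ENSG00000092439) lies on the reverse strand of chromosome 15, from 50552473 to 50686797, with 39 exons in its canonical transcript. The windows around their first start sites are shown because the family's expression in these cells rested mostly on this pair of genes. Each runs 5′ to 3′ from 250 bases before the start to 50 bases after it, in RefSeq's GRCh38.p14 tables. Capitals mark TATAAA in TRPM8 and CACGTG, the E-box bound by MYC family proteins, in TRPM7.

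TRPM8, chr2:233917123-233917422, forward strand: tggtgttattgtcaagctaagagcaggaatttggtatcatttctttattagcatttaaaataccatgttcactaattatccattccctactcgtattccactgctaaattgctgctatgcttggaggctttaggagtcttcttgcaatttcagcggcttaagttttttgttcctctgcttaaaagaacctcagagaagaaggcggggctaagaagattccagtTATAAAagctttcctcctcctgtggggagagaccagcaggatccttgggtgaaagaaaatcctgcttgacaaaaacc
TRPM7, chr15:50686748-50687047, reverse strand: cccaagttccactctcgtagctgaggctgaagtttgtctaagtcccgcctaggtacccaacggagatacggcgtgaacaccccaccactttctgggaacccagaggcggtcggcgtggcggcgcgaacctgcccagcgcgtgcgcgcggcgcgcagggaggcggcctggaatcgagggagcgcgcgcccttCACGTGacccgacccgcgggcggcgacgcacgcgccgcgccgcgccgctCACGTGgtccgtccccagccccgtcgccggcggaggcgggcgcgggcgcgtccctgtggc

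The TRPM8 window had a GC content of 41.0% and 3 CG dinucleotides, against a median of 58.7% and 14.0 over 35116 windows of 300 bases. Its only searched word was TATAAA, which began 27 bases before the start. The TRPM7 window had a GC content of 73.3% and 48 CG dinucleotides, with CACGTG beginning 59 and 10 bases before the start. The following words were searched on both strands: TATAAA, held by 11.5% of all windows, CACGTG, held by 7.26%, and any of TTTCCCGC, TTTCGCGC, TTTGCCGC and TTTGGCGC, the E2F consensus, held by 3.31%. None of these words overlapped another in the windows shown. RefSeq listed 18 windows for 7 members, with none matched for TRPM5. Of the 6 TRPM8 windows, which held from 1 to 5 CG dinucleotides, one at an internal start on chromosome 2 at position 233980149 held CACGTG. The only member window with an E2F word was the first of TRPM2, which also held CACGTG. Counts per gene do not show which start was used, and a word in a window is a description of sequence only.

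TRPM8 had 37 and 52 counts in the sh-Scb libraries, and 893 and 966 counts in the sh-SAPCD2 libraries. Scaled to library size, these were 1.34 and 1.89 CPM against 35.3 and 30.8 CPM. Both knockdown libraries lay far above both controls, and the lowest knockdown value was 16.3 times the highest control value. The group means were 1.61 ± 0.389 CPM in sh-Scb and 33.0 ± 3.19 CPM in sh-SAPCD2 (SD, n = 2), a ratio of 20.4 and a log2 fold change of 4.35 (SE 0.219). Set against the control mean, the 4 libraries stood at 0.830, 1.17, 21.8 and 19.1. By log2 fold change TRPM8 ranked 13 of the 18779 genes tested, and 2 of the 15673 tested genes with a mean log2 CPM of at least 0. In control cells 23.0% of tested genes had a lower mean CPM than TRPM8, and in knockdown cells 66.5% did. These ranks come from the values on which the gene was selected and are no test. In bulk libraries, more cells that express a gene and more RNA per cell cannot be told apart.

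TRPM1 had 0 counts in 3 of the 4 libraries, and the other, sh-Scb 2, had 1. TRPM5 had 3 and 11 counts in sh-Scb and 4 and 0 in sh-SAPCD2. A count of 0 allows up to 3 counts, or 0.0955 to 0.119 CPM depending on the library, and such limits cover counting error only. With at least 3 counts in both libraries of a group taken as detection, 7 members were detected in sh-Scb and 6 in sh-SAPCD2. With so few counts, no change of TRPM1 or TRPM5 was measurable at this depth.

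TRPM7, the channel with a kinase domain, was the most abundant member. Its level was 92.9 CPM in both sh-Scb libraries, and 122 and 95.8 CPM in the sh-SAPCD2 libraries. The knockdown libraries were both higher, one of them by little, with a log2 fold change of 0.23 (SE 0.140). Without sh-SAPCD2 replicate 1 this value was 0.04, and without sh-SAPCD2 replicate 2 it was 0.40, where TRPM7 also passed the adjusted p threshold of 0.05 but not the fold threshold. TRPM6, its closest relative, had 9 and 10 counts in sh-Scb and 16 and 13 in sh-SAPCD2, or 0.326 and 0.363 CPM against 0.632 and 0.414. Its log2 fold change was 0.58 (SE 0.511), and it passed the filter on low counts only through the sh-SAPCD2 libraries. It was 0.26 without sh-SAPCD2 replicate 1 and 0.87 without sh-SAPCD2 replicate 2.

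TRPM2, the ADP-ribose-gated channel, had 0.796 and 0.691 CPM in sh-Scb and 1.22 and 1.05 CPM in sh-SAPCD2. The groups did not overlap, and the log2 fold change was 0.61 (SE 0.365). TRPM3 had 1.19 and 1.09 CPM in sh-Scb against 1.74 and 1.66 CPM in sh-SAPCD2, also without overlap, with a log2 fold change of 0.57 (SE 0.303). Both genes rested on few reads, with from 19 to 33 counts of TRPM2 and from 30 to 52 of TRPM3 in a library. TRPM4, one of the calcium-activated members, had 1.67 and 1.20 CPM in sh-Scb and 1.19 and 2.83 CPM in sh-SAPCD2. Its groups overlapped, with the lowest and the highest of the 4 values both in knockdown cells, and its log2 fold change was 0.50 (SE 0.467). Without sh-SAPCD2 replicate 2 it was -0.27.

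**Figure D1:**
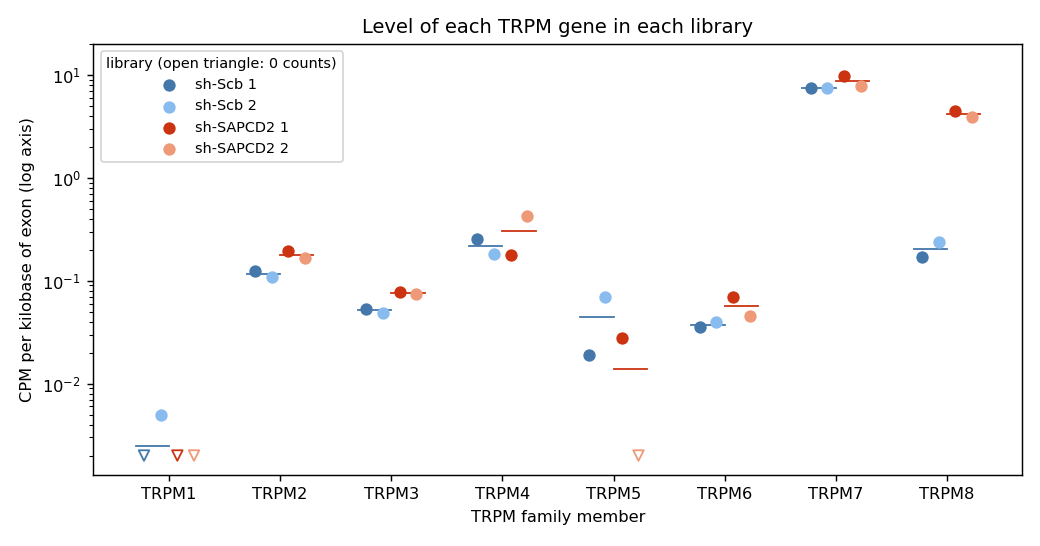
Level of each TRPM gene in each library, in CPM per kilobase of exon on a log axis; points are libraries, horizontal lines are group means, and open triangles at the lower edge stand for 0 counts. TRPM8 moved from about the level of TRPM4 in sh-Scb (0.204 CPM per kilobase) to the second level in the family in sh-SAPCD2 (4.16), while TRPM7 stayed first.

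A gene was called changed at an adjusted p under 0.05 together with an absolute log2 fold change over 1, the thresholds of the study's methods. Enough counts to be fitted were held by 6 members, and of these TRPM8 alone was called, as higher. Of all tested genes, 4.69% were called higher and 5.15% lower. At the adjusted p alone, with TRPM8 the only member when all 4 libraries were used, these shares were 12.4% and 12.5%. In all, 5 members (TRPM2, TRPM3, TRPM6, TRPM7 and TRPM8) were higher in both knockdown libraries than in both controls, and no member was lower in this way. Among all tested genes, 33.5% were higher and 33.4% lower without overlap. The median log2 fold change of the 6 members was 0.58, or 0.57 without TRPM8, against 0.02 over all tested genes. Since the family was picked from this contrast, nothing is read from these counts.

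**Figure D2:**
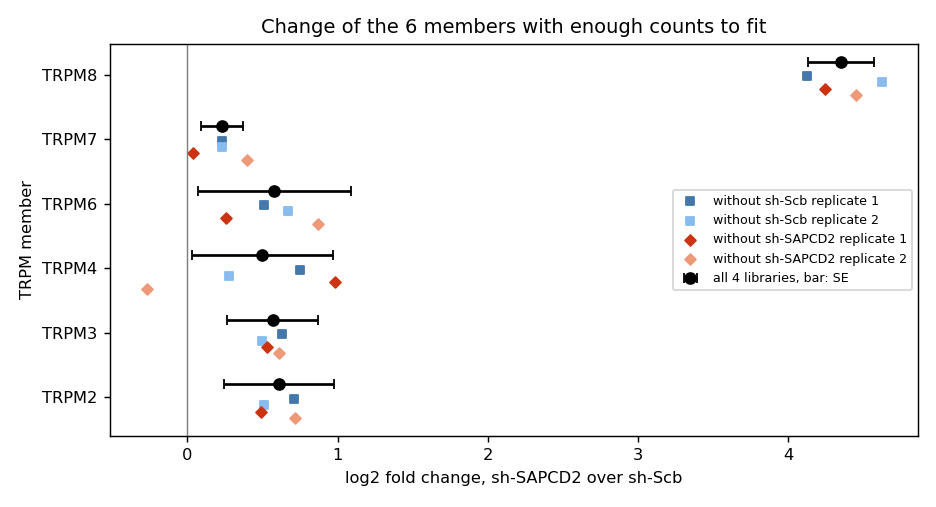
Log2 fold change of the 6 TRPM members that could be fitted, sh-SAPCD2 over sh-Scb, with all 4 libraries (black, bar for the SE) and with each library left out in turn (squares and diamonds). TRPM8 stayed between 4.12 and 4.62, and TRPM4 ran from -0.27 to 0.98.

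Levels of different genes were compared per length, as CPM divided by the kilobases of all annotated exons of the gene. In sh-Scb the order by mean was TRPM7 (7.50 CPM per kilobase), TRPM4 (0.217), TRPM8 (0.204), TRPM2 (0.117), TRPM3 (0.0514), TRPM5 (0.0444), TRPM6 (0.0375) and TRPM1 (0.00248). TRPM4 and TRPM8 did not differ beyond their spread there, with SDs of 0.0499 and 0.0491 CPM per kilobase, and the 2 libraries of TRPM5, at 0.0190 and 0.0699, reached beyond both TRPM3 and TRPM6. In sh-SAPCD2 the order was TRPM7 (8.81 ± 1.51 CPM per kilobase), TRPM8 (4.16 ± 0.403), TRPM4 (0.304 ± 0.177), TRPM2 (0.179 ± 0.0193), TRPM3 (0.0763), TRPM6 (0.0569), TRPM5 (0.0138) and TRPM1 at 0 (SD, n = 2). The values of TRPM7, at 9.87 and 7.74, lay above those of TRPM8, at 4.45 and 3.88, while the ranges of TRPM4 and TRPM2 overlapped. TRPM7 thus exceeded TRPM8 by 36.8 times per kilobase in control cells and by 2.11 times in knockdown cells.

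The 8 genes together had 2715 and 2711 counts in sh-Scb and 4112 and 4162 counts in sh-SAPCD2. TRPM8 made up 1.36% of them in sh-Scb 1 (95% Wilson interval 0.990 to 1.87) and 1.92% in sh-Scb 2 (1.47 to 2.51). In the knockdown libraries its share was 21.7% (20.5 to 23.0) and 23.2% (22.0 to 24.5). These intervals cover counting error within a library only, not the spread between libraries. Over the same libraries the share of TRPM7 went from 94.5% and 94.2% to 75.2% and 72.3%, although its own level was not lower in knockdown cells. Per kilobase, TRPM8 took 2.07% and 2.91% of the family total in sh-Scb and 29.9% and 31.5% in sh-SAPCD2.

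**Figure D3:**
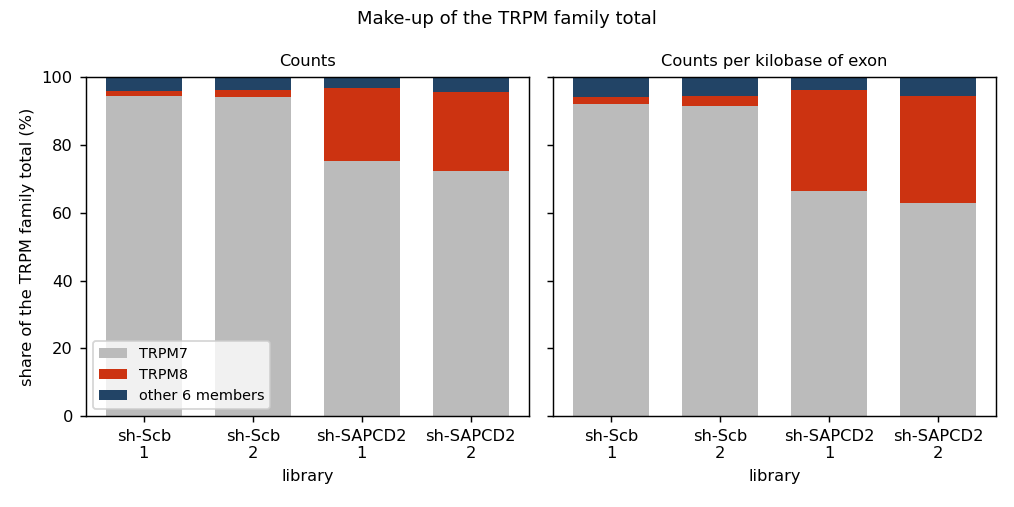
Share of the TRPM family total taken by TRPM7, TRPM8 and the other 6 members in each library, from counts (left) and from counts per kilobase of exon (right), in percent. TRPM8 rose from 1.36% and 1.92% of family counts in sh-Scb to 21.7% and 23.2% in sh-SAPCD2, with TRPM7 taking most of the rest.

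Genes that lie within or across the members were examined next, because the strand setting of the counting is not given in the sources used here, and without strand a gene and its antisense partner cannot be told apart. The lncRNA ENSG00000237581, antisense to TRPM8 with 119 shared exonic bases, had 0 counts in all libraries. TRPM2-AS, which lies antisense to TRPM2 and shares no exonic base with it, had 19 and 19 counts in sh-Scb and 20 and 17 in sh-SAPCD2. PIGUP1, a pseudogene in an intron of TRPM3, had 17 and 22 counts in sh-Scb against 8 and 15 in sh-SAPCD2. The antisense lncRNAs with exonic overlap at TRPM1, TRPM5 and TRPM7 were at 0 counts in all libraries. ENSG00000288645, a protein-coding annotation that shares 390 exonic bases with TRPM7 on the same strand, was not among the 64252 genes counted. Nor was ENSG00000286059, an lncRNA antisense to TRPM8 that shares no exonic base with it. Reads from the stretch shared with TRPM7 could therefore not have been counted for ENSG00000288645. The remaining overlapping genes, small RNAs, pseudogenes and lncRNAs at TRPM2, TRPM3 and TRPM6, had 0 or 1 counts in each library.

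Introns of TRPM1 and TRPM3 host MIR211 and MIR204, a pair of microRNA genes best known from the retina and pigment cells. Their 5p products are shown because they share a seed (bases 2 to 8, in capitals) and are alike at 20 of 22 positions, in RefSeq's GRCh38.p14 tables.

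hsa-miR-211-5p, chr15:31065095-31065116, reverse strand: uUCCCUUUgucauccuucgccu
hsa-miR-204-5p, chr9:70810031-70810052, reverse strand: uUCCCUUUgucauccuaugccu

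Both microRNA genes had 0 counts in all 4 libraries, while the host TRPM3 had from 30 to 52. Libraries made for longer RNA hold few mature microRNAs, so no level of either product was measured.

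Protein-coding genes near TRPM8 on chromosome 2 were read next. HJURP, the histone chaperone that loads CENP-A at centromeres, lies 62.8 kb before TRPM8. It had 79.9 and 82.6 CPM in sh-Scb and 51.9 and 52.4 CPM in sh-SAPCD2, and fell by 0.64 on the log2 scale (SE 0.105, edgeR adjusted p = 0.0102). That call was lost without either sh-Scb replicate 1 (adjusted p = 0.112) or replicate 2 (adjusted p = 0.150). SPP2, 31.2 kb after TRPM8, had 0 counts throughout, and MROH2A, 84.0 kb before it, had 4 and 4 counts in sh-Scb against 0 and 2 in sh-SAPCD2.

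The 6 lists of genes around the channels, 89 genes in all, were then read. Of these, 60 could be tested: 8 rose and 8 fell at an adjusted p under 0.05, and 3 of the latter (PARP1, CD38 and PLCG2) also passed the fold threshold. Each direction thus held 13.3% of the tested list genes, near the 12.4% higher and 12.5% lower among all tested genes, so these counts are not a result about the lists. The median log2 fold change over the 60 genes was 0.03, against 0.02 over all tested genes, and 11 genes had 0 counts in every library. Of the 16 calls, 4 held without sh-Scb replicate 1 and 3 without sh-Scb replicate 2, with the sign of all 16 kept. Without sh-SAPCD2 replicate 1 all 16 held, and without sh-SAPCD2 replicate 2, 15 held. MITF, in the list of TRPM1 and TRPM3 partners, is also a melanocyte marker below. Calls of single list genes, like that of HJURP, are at the adjusted p alone, from edgeR's quasi-likelihood test adjusted over all genes.

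**Figure D4:**
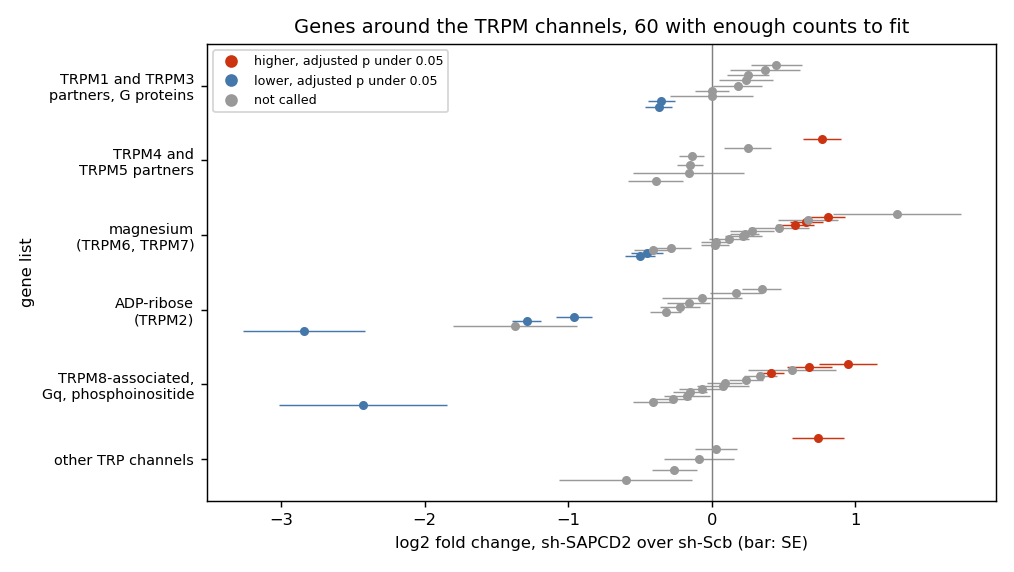
Log2 fold change (sh-SAPCD2 over sh-Scb, bar for the SE) of the 60 testable genes in 6 lists around the TRPM channels; red and blue mark genes higher or lower at an adjusted p under 0.05. The largest falls were CD38 at -2.84 and PLCG2 at -2.43, and every list held both positive and negative values.

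Among the TRP channels outside the TRPM family, 19 genes were listed, 6 had 0 counts throughout and 5 could be tested. One rose, and the median of the 5 log2 fold changes was -0.09. MCOLN1, the lysosomal calcium channel mucolipin-1, had 10.6 and 11.8 CPM in sh-Scb and 16.4 and 21.0 CPM in sh-SAPCD2, a log2 fold change of 0.74 (SE 0.181, edgeR adjusted p = 0.0311). TRPA1, the irritant receptor often found beside TRPM8 in sensory physiology, had 4.42 and 4.76 CPM against 5.02 and 3.63 CPM, with overlapping groups. PKD2, or polycystin-2, had 36.6 and 41.1 CPM against 43.2 and 36.1 CPM. The heat and capsaicin receptor TRPV1 had 28, 0, 7 and 7 counts and did not pass the filter on low counts.

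The second list held 18 genes for TRPM8-associated factors, Gq proteins and enzymes of phosphoinositides, the lipids on which TRPM8 depends. Of 14 tested, 3 rose and 1 fell, with a median log2 fold change of 0.08. Of the phospholipases C, which break down phosphatidylinositol 4,5-bisphosphate, PLCG1 and PLCD3 rose and PLCG2 fell. The others tested, PLCB1, PLCB2, PLCB3, PLCB4, PLCD1 and PLCD4, did not pass the test. PLCG1 had 214 and 210 CPM in sh-Scb and 279 and 285 CPM in sh-SAPCD2, a log2 fold change of 0.41 (SE 0.0921, adjusted p = 0.0242). PLCD3 had 317 and 276 counts in sh-Scb and 441 and 758 in sh-SAPCD2, a log2 fold change of 0.95 (SE 0.203, adjusted p = 0.0213). PLCG2 had 16 and 22 counts in sh-Scb against 4 and 3 in sh-SAPCD2, a log2 fold change of -2.43 (SE 0.587, adjusted p = 0.0304), and passed the filter only through the control libraries. GNA11, the Gq-class alpha subunit that couples receptors to phospholipase C, had 74.5 and 70.1 CPM against 99.3 and 132 CPM and rose, with a log2 fold change of 0.68 (edgeR adjusted p = 0.0261). TCAF1, a factor known to bind TRPM8 and promote its traffic to the surface, had 216 and 202 CPM in sh-Scb and 268 and 227 CPM in sh-SAPCD2. Its groups did not overlap, but its log2 fold change of 0.24 (SE 0.118) did not pass the test (adjusted p = 0.183).

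All 10 genes of ADP-ribose metabolism, which makes and removes the ligand of TRPM2, could be tested, and 3 fell and none rose, with a median log2 fold change of -0.27. Over all tested genes 12.5% fell and 12.4% rose at the same threshold, and with 10 genes nothing particular to the list is read from its count. PARP1, the main producer of poly(ADP-ribose) at DNA breaks, had 441 and 442 CPM in sh-Scb and 189 and 172 CPM in sh-SAPCD2. Its groups lay far apart, with a log2 fold change of -1.29 (SE 0.0996, edgeR adjusted p = 0.00210). CD38, an ectoenzyme that makes ADP-ribose and cyclic ADP-ribose from NAD, had 40 and 38 counts against 5 and 6, a log2 fold change of -2.84 (SE 0.427, adjusted p = 0.00787), and passed the filter only through the controls. OARD1, which removes terminal ADP-ribose from proteins, had 33.1 and 33.8 CPM against 17.5 and 16.9 CPM, a log2 fold change of -0.96 (SE 0.128, adjusted p = 0.00588). The ADP-ribose hydrolases NUDT9, at 32.7 ± 3.40 against 41.7 ± 2.51 CPM, and NUDT5, at 101 ± 2.21 against 80.5 ± 5.81 CPM (SD, n = 2), did not pass the test.

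Of 16 magnesium-handling genes, all tested, 3 rose and 2 fell, with a median log2 fold change of 0.23. MRS2, the magnesium channel of the inner mitochondrial membrane, had 35.9 CPM in both sh-Scb libraries and 67.0 and 59.2 CPM in sh-SAPCD2, a log2 fold change of 0.81 (SE 0.122, edgeR adjusted p = 0.00781). CNNM2, a basolateral magnesium transport protein of the kidney, had 51.2 and 53.4 CPM against 87.7 and 78.0 CPM, with a log2 fold change of 0.66 (adjusted p = 0.0121). SLC41A3 also rose, by a log2 fold change of 0.58 (adjusted p = 0.0249). NIPA1 fell by 0.50 on the log2 scale (adjusted p = 0.0211), and MAGT1, linked to magnesium uptake and to N-glycosylation, fell by 0.45 (adjusted p = 0.0311).

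The list for TRPM4 and TRPM5 held 13 genes for calmodulin, sulfonylurea receptors and taste transduction, of which 6 could be tested, and their median log2 fold change was -0.15. CALM3, one of the genes that encode calmodulin, had 107 and 105 CPM in sh-Scb against 160 and 200 CPM in sh-SAPCD2, and rose with a log2 fold change of 0.77 (edgeR adjusted p = 0.0114). CALM2, which encodes the same protein, had a log2 fold change of -0.15 and did not pass the test. Of the taste genes, TAS1R2, GNAT3 and CALHM3 had 0 counts in all libraries.

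Of 13 partners of TRPM1 and TRPM3 with G protein subunits, 9 were tested, 2 fell and none rose, with a median log2 fold change of 0.18. GNAO1, the Go alpha subunit that closes TRPM1 in the retina, had 167 and 164 CPM in sh-Scb and 129 and 131 CPM in sh-SAPCD2, and fell by 0.35 on the log2 scale (edgeR adjusted p = 0.0400). GNB1, a G protein beta subunit of the kind that inhibits TRPM3, had 685 and 686 against 507 and 554 CPM, and fell by 0.37 (adjusted p = 0.0369).

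Markers of cell types known for TRPM8 were read beside these values. Of 11 sensory neuron markers, 6 were detected in every library and the neuropeptide genes CALCA and TAC1 were at 0 throughout. Their summed level was 168 and 168 CPM in sh-Scb and 123 and 103 CPM in sh-SAPCD2, lower where TRPM8 was higher. GFRA3, the artemin receptor, was the only one of 7 tested that changed, with a log2 fold change of -1.68 (SE 0.254, edgeR adjusted p = 0.00799). Of 2 epithelial markers, CDH1 was at 0 throughout, and the sum, all EPCAM, ran from 3.40 to 4.58 CPM. All 9 sympathetic neuroblast markers were detected in every library, and the cells are labelled as neuroblastoma. Among them MYCN was higher by a log2 fold change of 1.02 (adjusted p = 0.00378), and ISL1 and DBH were lower. Their sum rose from 6112 and 5969 CPM to 8164 and 10093 CPM, of which MYCN held 3235 and 3178 CPM in sh-Scb and 5904 and 7091 CPM in sh-SAPCD2. Of 4 Schwann cell markers SOX10 was at 0 throughout, the list summing to 3.73 and 2.40 CPM in sh-Scb against 4.90 and 7.13 CPM in sh-SAPCD2. No marker of the melanocyte, fibroblast or immune lists passed the test, and their sums ran from 7.89 to 11.5 CPM, from 161 to 214 CPM and from 8.94 to 12.4 CPM. Whether these marker changes have a part in the higher TRPM8 counts was not tested.

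The protein-coding genes with the pattern most like that of TRPM8 were found by the Euclidean distance between log2 CPM profiles, each centred on its own mean, over 4 libraries and 13616 genes. TRPM8 itself stood at -2.39 and -1.92 in sh-Scb and at 2.25 and 2.06 in sh-SAPCD2 on this scale. SYS1-DBNDD2, a readthrough locus, came nearest at a distance of 0.671, with 2 and 1 counts in sh-Scb and 62 and 83 in sh-SAPCD2. EN2, a homeobox factor of the midbrain and hindbrain, followed at 0.718, with 0 and 0 against 24 and 49 counts. SPACDR at 0.888, with 0 and 0 against 18 and 25 counts, and the muscle factor MYOG at 0.918, with 0 and 0 against 22 and 19 counts, came next. IL6R, the interleukin-6 receptor, at a distance of 1.06, had 11 and 10 counts against 118 and 136. All these genes had far fewer counts than TRPM8 in the knockdown libraries, and reads of SYS1-DBNDD2 may be shared with the separate genes SYS1 and DBNDD2. SYS1-DBNDD2, EN2, SPACDR and MYOG passed the filter on low counts only through the sh-SAPCD2 libraries. The log2 CPM values carried a prior count of 2, which shrinks differences from 0 counts. Fitted log2 fold changes of EN2, SPACDR and MYOG were 8.15, 7.41 and 7.37, against 4.35 for TRPM8. Their nearness thus depends on that prior count, and the distances are no test.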

How the data were processed

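RNA-seq was read for 4 SK-N-BE(2) libraries, 2 sh-Scb and 2 sh-SAPCD2, grouped by their labels. The authors deposited counts per Ensembl gene, made from 150 bp paired reads of TRIzol total RNA (TruSeq libraries, Illumina sequencing) with HISAT2 2.2.0 on hg38, per the labels and the study's methods, which also name StringTie. Strand setting, annotation release and the treatment of reads mapping to several places are not given in the sources used here.

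From these counts, genes were filtered with filterByExpr (minimum count 10, total 15), leaving 18779 of 64252, scaled by TMM and tested with edgeR 4.0.16 (glmQLFit and glmQLFTest, Benjamini-Hochberg over all tested genes, R 4.3.3). The biological coefficient of variation that edgeR estimated was 15.4%. The study's thresholds were kept, and its tool, DESeq2 1.42.0, was run as an alternative because edgeR was the main test for counts. On simulated counts for these libraries, edgeR recovered 160 of 200 changed genes and called 8 unchanged ones. The simulation gave every gene the same 15.4% variation and scored the adjusted p alone, so these rates need not hold for the real libraries. CPM per kilobase used the union of annotated exons. With at most 31850997 counts per library, 3 counts were taken as the detection limit.

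The members and gene lists were chosen with earlier results of these data known. Named were all 8 members, SAPCD2, in each list the called genes with the smallest p (at most 5), the 2 nearest protein-coding genes on each side of TRPM8, genes overlapping a member, microRNA genes in TRPM1 and TRPM3, and the 5 genes most like TRPM8. List genes named for values that did not pass the test, the taste genes and TRPV1 were picked after their values were seen. Other normalizations, filters, a replicate block and leaving out each library were tried as alternatives. Some genes that this rule names are not reported here. No column of the authors' own comparisons was used.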

Additional observations from a re-analysis of the deposited data

How the results depend on the processing

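With 2 libraries per group, only large or tight changes could be called, and leaving out a library assumes that the lone library varies like the other group. TRPM8 kept its log2 fold change at 4.33 to 4.37 under other tests, scalings, filters and the replicate block, and at 4.12 to 4.62 with each library left out. It remained the only member called at both thresholds under the other tests, scalings, filters and the replicate block. All of these reuse the values on which TRPM8 was selected, so they are no test of it. TRPM4 ran from -0.27 without sh-SAPCD2 replicate 2 to 0.98 without sh-SAPCD2 replicate 1, and no other tested member changed sign. Genes called higher, 880, fell to 553 with no filter on low counts, and at the adjusted p alone were 2326 higher and 2339 lower in place of 968. Leaving out each library gave 705 to 1323 higher and 841 to 1205 lower, the highest count without sh-SAPCD2 replicate 1. List genes called, 3, were 1 with DESeq2, 1 with a mean of at least 1 CPM, 16 at the adjusted p alone, and 2 to 4 with each library left out. PLCG2 and CD38 had no adjusted p in DESeq2. With no filter, where more genes were tested, SAPCD2 did not pass the adjusted p threshold (-0.91, edgeR adjusted p = 0.0749). Of the 16 list calls at the adjusted p alone, 6 held there. The ratio of TRPM7 to TRPM8 per kilobase in sh-SAPCD2 was 1.80 with the longest transcript in place of 2.11, and the order of the members was the same. At a limit of 10 counts, 5 members were detected in sh-Scb and 6 in sh-SAPCD2.

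Libraries with the same replicate number did not deviate together (correlation -0.0188 across genes), so the numbers were taken as names. With the replicate block, 1044 genes were called higher and 1160 lower, 1 member and 4 list genes were called, and SAPCD2 fell by 0.94 on the log2 scale.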
